A study of Mus musculus with 24 samples.

Results

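The 33 genes described here encode the glucose transporters, the enzymes of glycolysis and of the pentose phosphate pathway, and the glycerol phosphate shuttle enzyme Gpd2. They were chosen by name, with earlier results of these data known, and all 33 were found among the 55401 genes of the transcript table and passed the filter on low counts that left 14749 genes for testing. They fall into 7 arms: glucose transport (3 genes), preparatory glycolysis from glucose to triose phosphate (10), control of fructose 2,6-bisphosphate (4), payoff glycolysis from triose phosphate to pyruvate (8), oxidative (3) and non-oxidative (4) pentose phosphate, and the shuttle (1).

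The cells were CD8 T cells of C57BL/6J mice, purified on magnetic beads from spleen and lymph nodes and grown for 3 days in activating culture with anti-CD28 and interleukin 2. All 4 groups carried an added sodium salt from day 2 to day 3. The NaCl group received 20 mM sodium chloride and is the control for the salt, the pyruvate group 20 mM sodium pyruvate, and the lactate group 20 mM sodium lactate. The fourth group received 20 mM sodium lactate and Oxyrase, an enzyme preparation that depletes oxygen from culture medium. The amount of Oxyrase and its time of addition are not stated in the labels. Oxyrase was given only together with lactate, so its effect is read against lactate alone. Each group had 3 RNA-seq and 3 ATAC-seq libraries. The labels do not say whether these came from separate animals or cultures, so the p-values measure only the spread between these samples, which may be technical.

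Glycolysis splits glucose into pyruvate, with ATP spent in its preparatory reactions and regained in the payoff reactions, and activated T cells rely on it heavily while they grow. The oxidative pentose phosphate arm draws glucose 6-phosphate off to make NADPH and pentose, and the non-oxidative arm returns pentose carbon to glycolysis. Pyruvate is the keto acid at the end of glycolysis and lactate is its reduced, hydroxy form; lactate dehydrogenase converts each into the other with NAD as the partner. Many glycolytic genes are known targets of the hypoxia-inducible factors, whose core binding sequence is ACGTG or GCGTG.

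The 200 bases before the annotated start are shown for 4 genes that rose with Oxyrase (Slc2a6, Pgk1, Slc2a1, Eno2) and for Tkt, which fell, because they show how unevenly that core sequence is spread over genes that moved. Sequences are from RefSeq (GRCm38.p6, the assembly also called mm10), 5′ to 3′ in the sense of the gene, with each ACGTG or GCGTG, or its reverse complement, in capitals.
Slc2a6 (chr2:27027999-27028198, minus strand): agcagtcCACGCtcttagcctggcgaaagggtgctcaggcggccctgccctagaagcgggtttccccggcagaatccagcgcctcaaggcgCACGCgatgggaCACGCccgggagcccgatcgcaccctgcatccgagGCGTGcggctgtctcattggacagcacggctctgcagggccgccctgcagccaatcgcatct
Pgk1 (chrX:106186900-106187099, plus strand): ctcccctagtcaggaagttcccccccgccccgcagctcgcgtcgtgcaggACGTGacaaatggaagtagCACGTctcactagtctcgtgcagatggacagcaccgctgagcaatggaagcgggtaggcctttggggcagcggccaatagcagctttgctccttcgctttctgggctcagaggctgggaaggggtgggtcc
Slc2a1 (chr4:119108545-119108744, plus strand): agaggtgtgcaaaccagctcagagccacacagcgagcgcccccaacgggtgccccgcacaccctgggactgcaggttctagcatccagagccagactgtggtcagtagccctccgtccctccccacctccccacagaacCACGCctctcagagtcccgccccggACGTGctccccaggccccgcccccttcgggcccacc
Eno2 (chr6:124769674-124769873, minus strand): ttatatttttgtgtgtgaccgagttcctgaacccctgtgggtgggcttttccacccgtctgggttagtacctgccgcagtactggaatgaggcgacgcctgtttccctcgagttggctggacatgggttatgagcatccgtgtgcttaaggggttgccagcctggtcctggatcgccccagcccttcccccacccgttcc
Tkt (chr14:30548931-30549130, plus strand): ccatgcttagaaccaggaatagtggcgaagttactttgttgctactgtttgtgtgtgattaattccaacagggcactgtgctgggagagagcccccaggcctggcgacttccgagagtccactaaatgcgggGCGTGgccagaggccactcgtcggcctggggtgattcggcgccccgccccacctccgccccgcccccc
Slc2a6 held 4 matches, Pgk1 and Slc2a1 held 2 each, Tkt held 1 and Eno2 held 0. In 250 bases before the start, 26 of the 32 members with a RefSeq promoter entry held at least 1 match, against 41.5% of 27025 genes. Those 27025 are all genes with an entry and not only the 14749 tested here. Both strings contain CG, and the shares were not compared among tested genes or at equal CG content, so no enrichment is read from them. The match did not separate directions: it was present in 7 of 9 members that rose with Oxyrase, in 8 of 9 that fell and in 11 of 14 that were not called. A match is a string of letters in a window and not a measured binding site. Slc2a3 has no entry in the promoter table.

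Levels are given as CPM, the usual depth-scaled unit, that is, estimated counts divided by the scaled library total, in the order of replicates 1, 2 and 3. Changes are log2 fold changes ± SE from edgeR's quasi-likelihood test, with Benjamini-Hochberg adjusted p-values over all tested genes. The verbs rose and fell are kept for genes that passed an adjusted p of 0.05. RNA libraries held 26036286 to 39643682 counts and ATAC libraries 25308254 to 37074367, so that 3 counts, the upper limit allowed by a count of 0, corresponded to 0.0757 to 0.115 CPM in RNA, for counting error only. The summed CPM of 6 CD8 T cell markers was 1711 to 1727 in NaCl, 1521 to 1567 with pyruvate and 1587 to 1681 with lactate. With Oxyrase it was 1162 to 1227. Of these markers Cd8a, Cd8b1, Cd3d, Cd3g and Trac fell with pyruvate against NaCl, and Cd3e was not called. Of 6 myeloid markers 2 were measured well enough to test. The list summed to 1.58 to 1.83 CPM in NaCl, 2.72 to 4.12 CPM with pyruvate and 1.77 to 1.88 CPM with lactate. With Oxyrase the list summed to 4.63 to 6.62 CPM. Cd68 rose with pyruvate over NaCl (1.14 ± 0.190, adjusted p = 0.000629), and Fcgr3, the other tested marker, was not called. The 2 CD4 T cell markers summed to 4.54 to 5.21 CPM in NaCl, 2.63 to 4.19 CPM with pyruvate and 3.95 to 4.77 CPM with lactate. With Oxyrase they summed to 1.09 to 1.38 CPM. Foxp3 stood at 4.06, 3.41 and 4.47 CPM with lactate and 0.778, 0.997 and 0.759 CPM with Oxyrase. Cd4 overlapped, at 0.490, 0.545 and 0.304 CPM with lactate and 0.370, 0.378 and 0.334 CPM with Oxyrase. The 6 red cell and platelet markers summed to 0.378 to 0.971 CPM over all libraries, with Hba-a1 and Pf4 at 0 in each. The part of these markers in the results was not tested. In such bulk samples fewer cells of a type and less RNA per cell cannot be told apart.

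The number and direction of called members differed by treatment. With pyruvate, 10 members rose against NaCl and 1 fell, where 15.7% of all tested genes were called, 9.4% higher and 6.28% lower. With lactate, 5 rose and 2 fell against NaCl, where 7.73% of all genes were called, 3.61% higher and 4.12% lower. Adding Oxyrase to lactate gave 10 that rose and 9 that fell, where 49.7% of all genes were called, 26.1% higher and 23.6% lower. That share of members is near the background, so the count itself says little about them. Against NaCl, lactate with Oxyrase gave 12 that rose and 8 that fell, where 50.8% of all genes were called, 26.5% higher and 24.3% lower.

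The median log2 fold change of the 33 members was 0.08 for pyruvate against NaCl, 0.04 for lactate against NaCl and -0.03 for Oxyrase against lactate, beside 0.00 over all tested genes in each. In the same order 2, 3 and 7 members differed by at least 0.5 on the log2 scale in either direction, called or not. Each of these counts includes Hk3, which was near the limit of detection and was called in no comparison. The share of all tested genes that passed 0.5 was not counted. Together the members took 1.64% ± 0.068 of all counts in NaCl, 1.85% ± 0.0069 with pyruvate, 1.69% ± 0.068 with lactate and 1.73% ± 0.016 with lactate and Oxyrase (SD, n = 3). The 3 pyruvate libraries (1.84% to 1.85%) lay above all others. The NaCl and the lactate libraries spread more than the others: NaCl replicate 1 was the lowest of its group for 25 of 33 members, and lactate replicate 2 was the lowest of its group for 20 of 33.

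**Figure D1:**
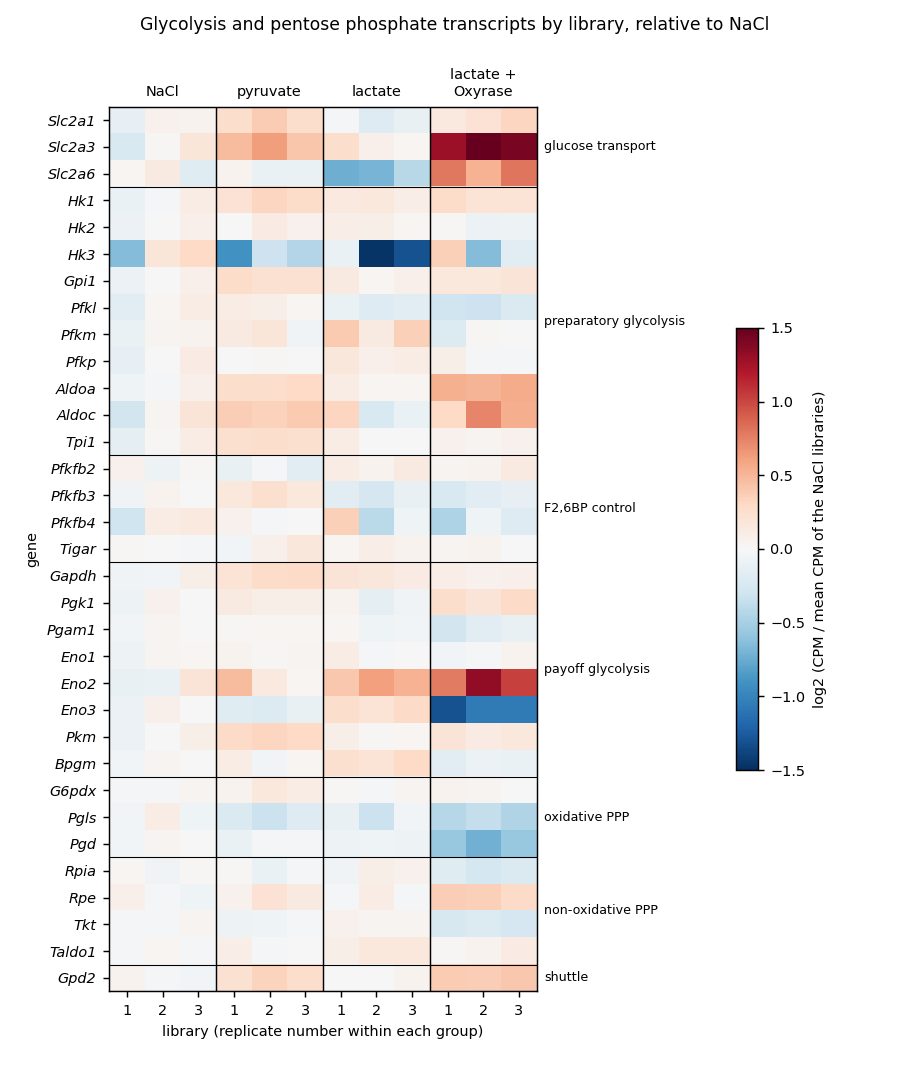
Log2 ratio of each gene's CPM to the mean of the 3 NaCl libraries (colour, limited to -1.5 to 1.5), for 33 genes (rows, by arm; PPP, pentose phosphate pathway; F2,6BP, fructose 2,6-bisphosphate) in 12 RNA-seq libraries (columns, by group and replicate). Slc2a3, Slc2a6 and Eno2 are highest and Eno3 is lowest with Oxyrase, while the pyruvate libraries show a shallow rise across many glycolytic rows.

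Of the 10 members that rose with Oxyrase over lactate, the transporter genes Slc2a6 and Slc2a3 rose most. Slc2a3 (chr6:122727809-122802363) encodes GLUT3, the high-affinity transporter of neurons and activated lymphocytes. It stood at 113, 134 and 149 CPM in NaCl, 184, 203 and 176 CPM with pyruvate, 158, 139 and 135 CPM with lactate, and 319.8, 377 and 354 CPM with lactate and Oxyrase. The Oxyrase libraries lay far above the other 9, and the pyruvate libraries lay above both the NaCl and the lactate libraries, which overlapped. Slc2a3 rose by 1.28 ± 0.085 with Oxyrase over lactate (2.43-fold, adjusted p = 1.58e-09) and by 0.51 ± 0.086 with pyruvate over NaCl (1.42-fold, adjusted p = 0.000651). For lactate against NaCl the difference was 0.13 ± 0.086 (adjusted p = 0.388).

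Slc2a1 (chr4:119108745-119137330), the widely expressed transporter GLUT1, was likewise higher with pyruvate and with Oxyrase, by smaller steps. Its levels were 129, 146 and 145 CPM in NaCl, 168, 182 and 168 CPM with pyruvate, 138, 122 and 129.6 CPM with lactate, and 155, 163 and 176 CPM with Oxyrase. It rose with pyruvate over NaCl (0.30 ± 0.057, adjusted p = 0.00165) and with Oxyrase over lactate (0.35 ± 0.057, adjusted p = 7.38e-05), in each case without overlap of the groups. Slc2a6 (chr2:27021363-27028000), which encodes GLUT6, a transporter of intracellular membranes, was 1 of 2 members that fell with lactate. It was measured at 13.6, 14.6 and 11.8 CPM in NaCl, 13.9, 12.4 and 12.4 CPM with pyruvate, 8.02, 8.24 and 10.0 CPM with lactate, and 23.0, 19.2 and 23.3 CPM with Oxyrase.

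The lactate libraries of Slc2a6 were thus the lowest and the Oxyrase libraries the highest of the 12, with no overlap. It fell by 0.60 with lactate against NaCl (SE 0.105, 1.52-fold lower, adjusted p = 0.00262) and rose by 1.31 ± 0.102 when Oxyrase was added (2.48-fold, adjusted p = 1.15e-08). The latter made it 1.63-fold higher than in NaCl (0.71 ± 0.099, adjusted p = 1.23e-05). Pyruvate left an interval of -0.27 to 0.16 around -0.05 (adjusted p = 0.775).

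**Figure D2:**
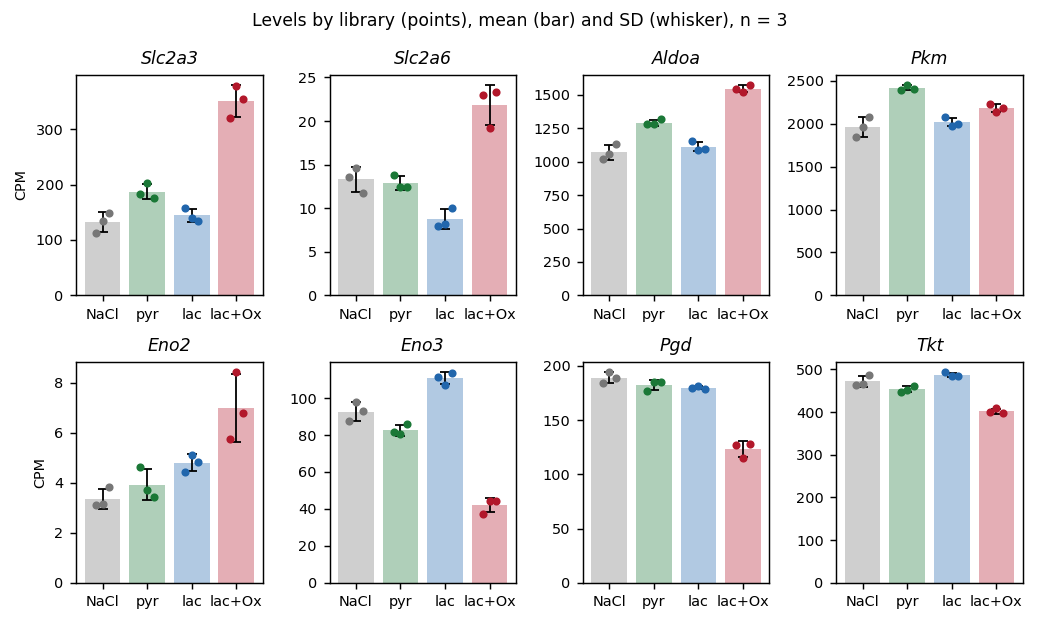
CPM (vertical axis, from 0) of 8 genes in the NaCl, pyruvate (pyr), lactate (lac) and lactate with Oxyrase (lac+Ox) groups; points are libraries, bars are means and whiskers are SD of 3 libraries. Slc2a3, Slc2a6, Aldoa and Eno2 are highest and Eno3, Pgd and Tkt lowest with Oxyrase, and Pkm is highest with pyruvate.

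In preparatory glycolysis 4 of 10 members rose and 0 fell with pyruvate over NaCl, where 9.4% of all tested genes rose and 6.28% fell. With Oxyrase over lactate 2 rose and 2 fell, at or below the 26.1% and 23.6% over all genes. Hexokinases trap glucose in the cell by phosphorylating it. Hk1, the housekeeping form bound to mitochondria, stood at 186, 195 and 216 CPM in NaCl, 231, 249 and 240.5 CPM with pyruvate, 219.6, 222 and 212 CPM with lactate, and 240.4, 229.7 and 230.1 CPM with Oxyrase. Hk2, the inducible form, stood at 210.4, 224 and 234 CPM in NaCl, 221, 242 and 234 CPM with pyruvate, 239, 236 and 228 CPM with lactate, and 225, 209 and 211 CPM with Oxyrase. All pyruvate and all Oxyrase libraries of Hk1 exceeded all NaCl libraries, while for Hk2 these groups overlapped.

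Hk1 accordingly rose with pyruvate (0.27 ± 0.047, adjusted p = 0.000821), and Hk2 was at 0.06 ± 0.045 (adjusted p = 0.398). Hk2 fell with Oxyrase against lactate by 0.12 (SE 0.045, adjusted p = 0.0324), a call that was lost in 5 of 12 other settings, among them on leaving out lactate 1, lactate 2, Oxyrase 2 or Oxyrase 3 (highest adjusted p = 0.12 over the 12). Hk3, a hexokinase of myeloid cells, was close to the limit of detection. Its levels were 0.241, 0.426 and 0.463 CPM in NaCl, 0.201, 0.304 and 0.277 CPM with pyruvate, 0.350, 0.136 and 0.152 CPM with lactate, and 0.481, 0.241 and 0.334 CPM with Oxyrase, and it was called in no comparison.

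Phosphofructokinase commits sugar to glycolysis as a tetramer of liver (Pfkl), muscle (Pfkm) and platelet (Pfkp) type subunits. Pfkl stood at 163, 185 and 195 CPM in NaCl, 195, 193 and 185 CPM with pyruvate, 169.5, 158 and 162 CPM with lactate, and 147, 146 and 156 CPM with Oxyrase. Pfkm stood at 16.3, 18.0 and 18.1 CPM in NaCl, 19.2, 19.8 and 16.9 CPM with pyruvate, 23.0, 19.3 and 22.5 CPM with lactate, and 15.1, 17.7 and 17.5 CPM with Oxyrase. Pfkp stood at 532, 579.7 and 632 CPM in NaCl, 581, 586 and 580.3 CPM with pyruvate, 656, 615 and 626 CPM with lactate, and 618, 569 and 568 CPM with Oxyrase. The lactate libraries of Pfkm were the highest of the 12 except that the lowest of them overlapped the pyruvate group.

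Pfkm fell with Oxyrase against lactate by 0.36 (SE 0.083, 1.28-fold lower, adjusted p = 0.00164). Its rise with lactate over NaCl (0.30 ± 0.082, adjusted p = 0.0334) was lost in 6 of 12 other settings, among them on leaving out lactate 1, lactate 3, NaCl 1 or NaCl 2. Pfkl was lower with Oxyrase than in NaCl (fell by 0.27, SE 0.053, adjusted p = 0.000369) and higher with pyruvate than with lactate (0.23 ± 0.053, adjusted p = 0.0046). Pfkp was called in no comparison.

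Aldolase, which cleaves fructose 1,6-bisphosphate, gave the lowest p-value of this arm with Oxyrase. The main form Aldoa (chr7:126795234-126800994) stood at 1018, 1059 and 1129 CPM in NaCl, 1278, 1278 and 1316 CPM with pyruvate, 1153, 1089 and 1095 CPM with lactate, and 1544, 1519 and 1572 CPM with Oxyrase. Its groups formed 3 steps without overlap, NaCl together with lactate, then pyruvate, then Oxyrase. Aldoa rose by 0.27 ± 0.039 with pyruvate over NaCl (adjusted p = 0.000145) and by 0.47 ± 0.039 with Oxyrase over lactate (1.39-fold, adjusted p = 2.21e-08). The brain form Aldoc stood at 4.07, 5.05 and 5.63 CPM in NaCl, 6.37, 6.25 and 6.45 CPM with pyruvate, 6.16, 4.20 and 4.59 CPM with lactate, and 6.04, 8.18 and 7.19 CPM with Oxyrase. Aldoc rose with Oxyrase over lactate (0.53 ± 0.149, adjusted p = 0.00659), although the lowest Oxyrase library lay below the highest lactate library.

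Gpi1, which turns glucose 6-phosphate into fructose 6-phosphate, averaged 541 ± 30.3 CPM in NaCl and rose to 639 ± 11.3 CPM on pyruvate (SD, n = 3; 0.24 ± 0.040, adjusted p = 0.000651). Tpi1, which interconverts the triose phosphates, rose from 902 ± 82.8 to 1069 ± 8.66 CPM (0.25 ± 0.051, adjusted p = 0.00345). Neither passed the test for Oxyrase against lactate, where Gpi1 was at 0.09 ± 0.040 (adjusted p = 0.0715) and Tpi1 at 0.03 ± 0.051 (adjusted p = 0.709).

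The enzymes that set fructose 2,6-bisphosphate, the strongest activator of phosphofructokinase, showed opposite responses to the 2 carbon sources at 1 gene. Pfkfb3 (chr2:11471430-11554071), the isoform with the highest kinase activity, stood at 95.5, 103 and 99.8 CPM in NaCl, 111, 117 and 111 CPM with pyruvate, 88.4, 83.1 and 91.99 CPM with lactate, and 84.6, 87.9 and 91.2 CPM with Oxyrase. The pyruvate libraries were the highest, both lactate-containing groups the lowest, and NaCl lay between them without overlap. Pfkfb3 rose with pyruvate (0.19 ± 0.044, adjusted p = 0.00884) and fell with lactate by 0.18 (SE 0.045, adjusted p = 0.0235), and the direct difference between pyruvate and lactate was 0.36 ± 0.044 (adjusted p = 1.74e-05). The rise was lost without pyruvate 2 (adjusted p = 0.06), and the fall without lactate 2, NaCl 2 or NaCl 3 (highest adjusted p = 0.122).

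Oxyrase added to lactate left Pfkfb3 at 0.00, with an interval of -0.09 to 0.10. Pfkfb2 stood at 6.74, 6.12 and 6.52 CPM in NaCl, 5.96, 6.38 and 5.75 CPM with pyruvate, 7.005, 6.71 and 7.10 CPM with lactate, and 6.63, 6.71 and 7.07 CPM with Oxyrase. Pfkfb4, known as a hypoxia-induced isoform, stood at 3.07, 4.08 and 4.20 CPM in NaCl, 3.96, 3.75 and 3.78 CPM with pyruvate, 4.83, 2.86 and 3.63 CPM with lactate, and 2.74, 3.61 and 3.31 CPM with Oxyrase. Neither was called in any comparison, nor was Tigar, a phosphatase that lowers fructose 2,6-bisphosphate, whose group means lay between 40.4 and 42.5 CPM.

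In payoff glycolysis 3 of 8 members rose and 3 fell with Oxyrase over lactate, against 26.1% higher and 23.6% lower over all genes, and the muscle and neuronal enolases moved further than the others. Enolase makes phosphoenolpyruvate. The ubiquitous form Eno1 stood at 2224, 2412 and 2402 CPM in NaCl, 2436, 2375 and 2423 CPM with pyruvate, 2545, 2307 and 2358 CPM with lactate, and 2281, 2291 and 2428 CPM with Oxyrase, with all groups overlapping and no call in any comparison. The muscle form Eno3 (chr11:70653125-70662513) stood at 87.4, 97.9 and 92.9 CPM in NaCl, 81.4, 80.5 and 85.9 CPM with pyruvate, 112, 107 and 113 CPM with lactate, and 37.5, 44.4 and 44.4 CPM with Oxyrase. The 4 groups of Eno3 did not overlap, in the descending order lactate, NaCl, pyruvate, Oxyrase.

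Eno3 had the most negative log2 fold change of the 33 members with Oxyrase: it fell by 1.39 against lactate (SE 0.058, 2.63-fold lower, adjusted p = 5.51e-12) and by 1.14 against NaCl (SE 0.059, adjusted p = 6.76e-11). It rose with lactate over NaCl (0.26 ± 0.055, adjusted p = 0.00978) and was lower with pyruvate than with lactate (fell by 0.42, SE 0.055, adjusted p = 3.28e-05); its fall with pyruvate against NaCl narrowly missed the threshold (-0.17 ± 0.056, adjusted p = 0.0508). RefSeq places Eno3 over part of the profilin gene Pfn1, so reads in the shared stretch may be split between them. Eno3 is 1 of 8 members that a protein-coding gene overlaps. The same limit holds for the others, which are Hk3, Pfkm, Pfkp, Pfkfb2, Tpi1, G6pdx and Rpe. Pfn1 fell with Oxyrase against lactate by 0.23 (SE 0.044, adjusted p = 0.000306) and for lactate against NaCl was at -0.02 ± 0.044 (adjusted p = 0.827).

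The neuronal form Eno2 (chr6:124760053-124769673) moved the other way. It stood at 3.10, 3.14 and 3.82 CPM in NaCl, 4.65, 3.72 and 3.43 CPM with pyruvate, 4.45, 5.13 and 4.82 CPM with lactate, and 5.74, 8.43 and 6.80 CPM with Oxyrase. NaCl, lactate and Oxyrase formed 3 rising steps without overlap. Eno2 rose with Oxyrase by 0.54 ± 0.145 over lactate (adjusted p = 0.00504) and by 1.07 ± 0.153 over NaCl (2.10-fold, adjusted p = 1.61e-05). Its rise with lactate over NaCl was borderline (0.53 ± 0.156, adjusted p = 0.047) and was lost in 7 of 12 other settings, among them on leaving out any lactate library or NaCl 1 or NaCl 2.

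Of the other payoff enzymes, pyruvate kinase and glyceraldehyde 3-phosphate dehydrogenase rose with pyruvate. Pkm (chr9:59656576-59679372), which makes pyruvate and ATP, stood at 1839, 1958 and 2071 CPM in NaCl, 2391, 2449 and 2407 CPM with pyruvate, 2072, 1977 and 1999.7 CPM with lactate, and 2232, 2135 and 2177 CPM with Oxyrase. Pkm rose with pyruvate by 0.30 ± 0.040 over NaCl (1.24-fold, adjusted p = 6.28e-05) and by 0.26 ± 0.040 over lactate (adjusted p = 0.000156), with the pyruvate libraries above all others. Gapdh averaged 4181 ± 239 CPM in NaCl and rose to 4996 ± 165 CPM on pyruvate (SD, n = 3; 0.26 ± 0.040, adjusted p = 0.000347).

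Pgk1 (chrX:106187100-106203699), the first ATP-yielding enzyme, rose with Oxyrase from 1534 ± 102 CPM with lactate to 1878 ± 64.1 CPM (SD, n = 3; 0.29 ± 0.047, adjusted p = 5.66e-05). Pgam1, a phosphoglycerate mutase, fell by 0.15 (SE 0.042, adjusted p = 0.00552) and Bpgm, which makes 2,3-bisphosphoglycerate, fell by 0.37 (SE 0.062, adjusted p = 9.22e-05) in the same comparison. Pkm rose there by 0.11 ± 0.040 (adjusted p = 0.0254), but not when Oxyrase 1, Oxyrase 3, lactate 2 or lactate 3 was left out (highest adjusted p = 0.0858).

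With lactate alone the 5 members that rose over NaCl were Pfkm, Gapdh (0.16 ± 0.040, adjusted p = 0.0238), Eno2, Eno3 and Bpgm (0.25 ± 0.061, adjusted p = 0.0194). These rises depended on NaCl replicate 1: without it 0 members rose and 3 fell. Without lactate 1, 2 or 3 the count of members called was 4 each, and without NaCl 2 it was 3, against 7 with all libraries. The fall of Slc2a6 was kept in all 12 other settings (highest adjusted p = 0.0213).

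**Figure D3:**
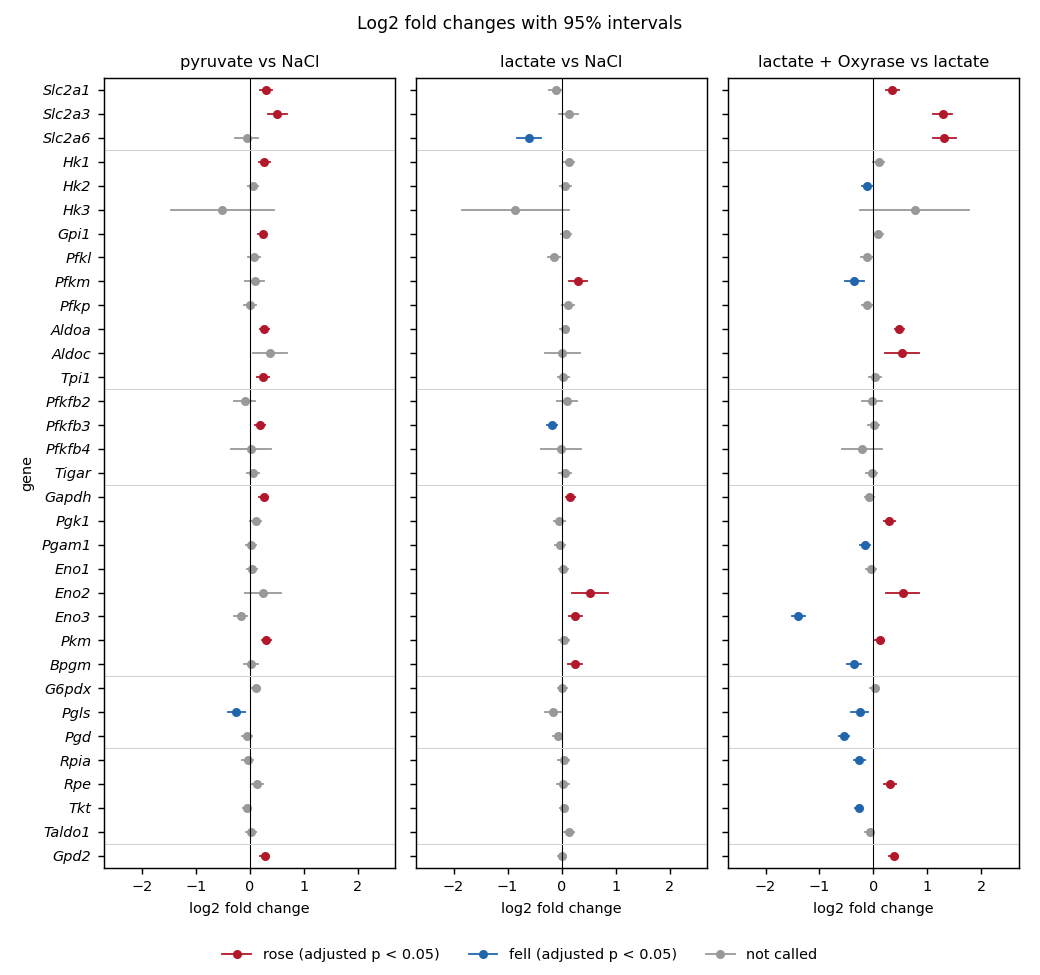
Log2 fold change (horizontal axis) with its 95% interval for the 33 genes (rows, in the order of the arms) in 3 comparisons. Red marks genes that rose, blue genes that fell and grey genes that were not called at an adjusted p of 0.05; changes with pyruvate or lactate alone are mostly within 0.5, while Slc2a3, Slc2a6 and Eno3 pass 1 with Oxyrase.

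In the pentose phosphate arms 1 of 7 members fell with pyruvate against NaCl (6.28% of all genes did) and 0 were called with lactate against NaCl (7.73% of all genes). With Oxyrase over lactate 4 fell and 1 rose, beside 23.6% lower and 26.1% higher over all genes. Pgd (chr4:149149991-149166705), which makes NADPH and ribulose 5-phosphate, stood at 184, 194 and 189 CPM in NaCl, 177, 185 and 185 CPM with pyruvate, 179.9, 181 and 179 CPM with lactate, and 127, 115 and 128 CPM with Oxyrase. The Oxyrase libraries lay far below the other 9. Pgd fell by 0.55 with Oxyrase against lactate (SE 0.041, 1.46-fold lower, adjusted p = 8.17e-09).

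Pgls, the lactonase between the 2 NADPH-yielding steps, fell by 0.26 in that comparison (SE 0.072, adjusted p = 0.00669; 0.0507 without lactate 3) and by 0.25 with pyruvate against NaCl (SE 0.070, adjusted p = 0.0253), a call lost in 3 of 12 other settings, among them without pyruvate 2 or NaCl 2. G6pdx, the enzyme that opens the oxidative arm, was called in no comparison, with group means between 92.6 and 99.9 CPM. With Oxyrase 2 of the 3 oxidative members thus fell while G6pdx was at 0.02 (interval -0.06 to 0.10).

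In the non-oxidative arm, Tkt, the transketolase that moves 2-carbon units between sugars, stood at 463, 466 and 486 CPM in NaCl, 447, 452 and 462 CPM with pyruvate, 493, 485 and 484 CPM with lactate, and 400.1, 409 and 397 CPM with Oxyrase. Tkt fell by 0.28 with Oxyrase against lactate (SE 0.032, adjusted p = 1.42e-06), and Rpia, the ribose 5-phosphate isomerase, fell by 0.26 (SE 0.050, adjusted p = 0.000326). Rpe, the epimerase at the same branch point, rose from 71.3 ± 3.95 to 88.5 ± 2.54 CPM (SD, n = 3; 0.31 ± 0.051, adjusted p = 6.86e-05). Taldo1, the transaldolase, was called in no comparison.

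Gpd2 (chr2:57237678-57370719), the mitochondrial glycerol 3-phosphate dehydrogenase that passes cytosolic reducing power to the respiratory chain, stood at 169, 159.6 and 158 CPM in NaCl, 190.4, 204 and 194 CPM with pyruvate, 161, 161 and 168 CPM with lactate, and 211, 210.0 and 215 CPM with Oxyrase. NaCl and lactate overlapped, pyruvate was above both and Oxyrase above all. It rose by 0.27 ± 0.037 with pyruvate over NaCl (adjusted p = 8.91e-05) and by 0.38 ± 0.037 with Oxyrase over lactate (adjusted p = 2.23e-07).

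Pyruvate and lactate, the keto and hydroxy forms at the same concentration and over the same time, were also compared directly. With pyruvate 12 members were higher than with lactate and 3 lower, where 24% of all tested genes were called, 13% higher and 10.9% lower. All 3 transporters were higher with pyruvate (Slc2a1 0.41 ± 0.057, Slc2a3 0.38 ± 0.085, Slc2a6 0.55 ± 0.105), as were Pfkfb3, Pkm and Gpd2 (0.26 ± 0.037). Eno3, Bpgm (fell by 0.22, SE 0.061) and Tkt (fell by 0.10, SE 0.032) were lower. Calls for Hk1, Pgk1, Bpgm and Tkt were lost in 6, 5, 2 and 6 of 12 other settings.

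For 29 of the 33 members the 95% interval of the pyruvate to lactate difference lay within 1.5-fold in either direction. The other 4 were Slc2a6, Hk3, Aldoc (0.36, interval 0.05 to 0.67) and Eno2 (-0.29, interval -0.60 to 0.03). For Hk2 the interval was -0.11 to 0.08 and for Eno1 -0.08 to 0.09. The 29 include members called different, among them Slc2a1, Slc2a3, Pfkfb3 and Eno3. Lying within the margin therefore bounds the size of a difference and does not mean that there was none. The share of all tested genes within the margin was not counted.

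Isoform ratios within a library are free of the scaling between libraries, and 11 such log2 ratios were compared over the 4 groups with an exact permutation test, with p-values adjusted over the 11. They rest on the same counts as the fold changes above. Each test covers the 4 groups together. No pair of groups was tested, since 3 libraries against 3 cannot give a p-value under 0.1. Because transcripts differ in length, only the change of a ratio between groups is read. The ratio Hk2/Hk1 was 0.17 ± 0.041 in NaCl, -0.05 ± 0.012 with pyruvate, 0.10 ± 0.016 with lactate and -0.12 ± 0.022 with Oxyrase (SD, n = 3; exact permutation test, adjusted p = 0.000714), so Hk1 gained on Hk2 with pyruvate and with Oxyrase.

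The 2 ratios of phosphofructokinase transcripts were higher in both groups that contained lactate than in NaCl and pyruvate. Pfkp/Pfkl was 1.68 ± 0.034 in NaCl and 1.61 ± 0.037 with pyruvate but 1.95 ± 0.0059 with lactate and 1.96 ± 0.1002 with lactate and Oxyrase (SD, n = 3; exact permutation test, adjusted p = 0.00295), although neither gene passed the test for lactate against NaCl on its own. Pfkm/Pfkl was -3.33 ± 0.057, -3.33 ± 0.081, -2.89 ± 0.096 and -3.12 ± 0.116 in the same order (exact permutation test, adjusted p = 0.00214). Its lowest Oxyrase library (-3.24) lay close to the highest pyruvate library (-3.25). Pfkfb2/Pfkfb3 likewise was -3.84 ± 0.117 in NaCl, -4.12 ± 0.032 with pyruvate, -3.57 ± 0.035 with lactate and -3.60 ± 0.020 with Oxyrase (exact permutation test, adjusted p = 0.000714).

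The ratio Eno3/Eno1 went from -4.65 ± 0.035 in NaCl and -4.43 ± 0.067 with lactate to -5.78 ± 0.118 with Oxyrase (SD, n = 3), and its exact permutation p of 6.49e-05 is the smallest that these 12 libraries can give. Eno2/Eno1 was -9.26 ± 0.128 in NaCl, -9.10 ± 0.193 with pyruvate, -8.83 ± 0.166 with lactate and -8.30 ± 0.264 with Oxyrase (exact permutation test, adjusted p = 0.00202). Part of its distance between NaCl and Oxyrase was thus already present with lactate alone. Slc2a3/Slc2a1 was -0.09 ± 0.121 in NaCl, 0.12 ± 0.044 with pyruvate, 0.15 ± 0.079 with lactate and 1.08 ± 0.105 with Oxyrase (exact permutation test, adjusted p = 0.00161). Slc2a6/Slc2a1 also differed over the groups (exact permutation test, adjusted p = 0.00186). Nothing is read from Hk3/Hk1, since every Hk3 level lay under the 0.5 CPM added to both genes. Aldoc/Aldoa and Pfkfb4/Pfkfb3 did not pass (adjusted p = 0.795 and 0.319, exact permutation test).

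**Figure D4:**
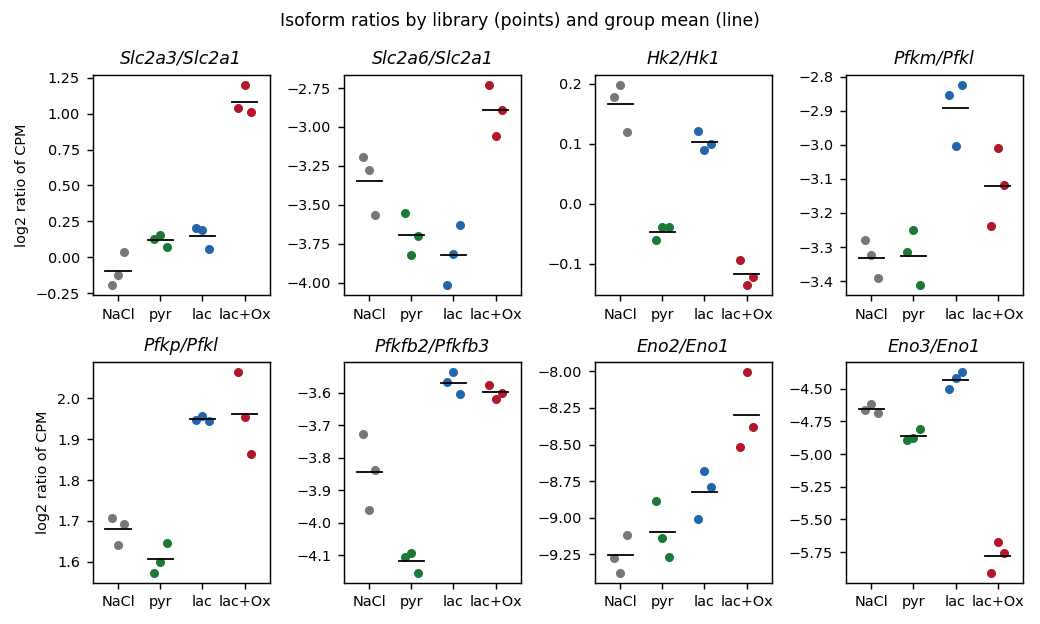
Log2 ratio of the CPM of 2 isoforms (vertical axis, own scale in each panel) for 8 ratios in the NaCl, pyruvate (pyr), lactate (lac) and lactate with Oxyrase (lac+Ox) groups; points are libraries and lines are group means. Hk2/Hk1 is lower with pyruvate and Oxyrase, Pfkp/Pfkl and Pfkfb2/Pfkfb3 are higher in both lactate groups, and Eno3/Eno1 is lowest with Oxyrase.

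ATAC-seq, in which a transposase marks open chromatin, was read at 40 peaks that overlapped 1 kb on either side of the start of 31 members. For pyruvate against NaCl 0 of these were called (background 0% in each direction). In edgeR 4060 of all 75802 peaks had an unadjusted p under 0.05, near the share of 0.05 reached where nothing differs. After adjustment edgeR called 0 of the 75802, and 0 passed in DESeq2. The 10 transcripts that rose with pyruvate therefore had no called change in accessibility at the starts that could be read. With lactate against NaCl 0 member peaks were higher and 6 lower, where 0.391% of 13552 gene-start peaks were higher and 17.5% lower. For Oxyrase against lactate 0 were higher and 9 lower (background 4.69% and 22.2%), and for Oxyrase with lactate against NaCl 1 was higher and 18 lower (background 8.01% and 45.6%). Pyruvate against lactate gave 7 higher and 0 lower (background 20.7% and 1.9%).

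These directions depend on the scaling. Gene-start peaks as a whole shifted by a median of -0.11 with lactate against NaCl, -0.12 with Oxyrase against lactate, -0.22 with Oxyrase and lactate against NaCl, and 0.10 for pyruvate against lactate. With gene-start peaks scaled by themselves, the member peaks called higher and lower were 3 and 4, 4 and 5, 8 and 10, and 6 and 6, respectively, where the background was 7.25% and 12.7%, 9.98% and 10.7%, 26.6% and 26.1%, and 15.3% and 12.1%. The counts for lactate against NaCl and for pyruvate against lactate also rested on single libraries. For lactate against NaCl the count was 1 without NaCl 1, NaCl 2 or lactate 3 and 2 without lactate 2, but 10 without lactate 1 and 11 without NaCl 3. For pyruvate against lactate it was 2 without lactate 3 and 3 without lactate 2 or pyruvate 2.

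For Oxyrase against lactate, 4 of the 40 member peaks were thus higher and 5 lower with gene-start peaks scaled alone. These counts are near the background of 9.98% and 10.7%, so the members as a set did not stand out. The falling peaks given below are single examples from the lower side and not a trait of the members. The peak whose edge reached the Eno3 window lay at chr11:70653535-70656178, inside the RefSeq span of Eno3 with its centre at -2319 bp from the start used here, and it is also the start peak of Pfn1. Its accessibility was 99.2, 105 and 75.4 CPM in NaCl, 104, 104 and 97.6 CPM with pyruvate, 74.4, 75.5 and 66.5 CPM with lactate, and 49.9, 46.8 and 50.5 CPM with Oxyrase. The Oxyrase libraries were the lowest, and NaCl 3 lay within the range of the lactate libraries. The peak fell by 0.56 with Oxyrase against lactate (SE 0.099, adjusted p = 2.70e-05) and by 0.44 with gene-start peaks scaled alone (adjusted p = 7.96e-05). With lactate against NaCl this peak fell by 0.37 (SE 0.098, adjusted p = 0.0132), beside a median of -0.11 over all gene-start peaks. The Eno3 transcript rose in that comparison, a call lost without NaCl 1 (adjusted p = 0.0593).

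The start peak of Pgam1 (chr19:41911456-41912716) fell by 0.44 with Oxyrase against lactate (SE 0.0995, adjusted p = 0.000641) and that of Pkm (chr9:59655988-59657510) by 0.42 (SE 0.093, adjusted p = 0.000567), and both were also called with gene-start peaks scaled alone. Pgam1's transcript fell and Pkm's rose in that comparison. At Slc2a6, whose transcript rose 2.48-fold, the start peak was at 0.01 ± 0.092 (adjusted p = 0.93). At Aldoa it was at -0.18 ± 0.093 (adjusted p = 0.148), and at Pgk1 at 0.07 ± 0.092 (adjusted p = 0.639). The Slc2a1 peak fell by 0.27 (SE 0.094, adjusted p = 0.0242) while its transcript rose, but it was not called with gene-start peaks scaled alone (-0.16, adjusted p = 0.0702).

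**Figure D5:**
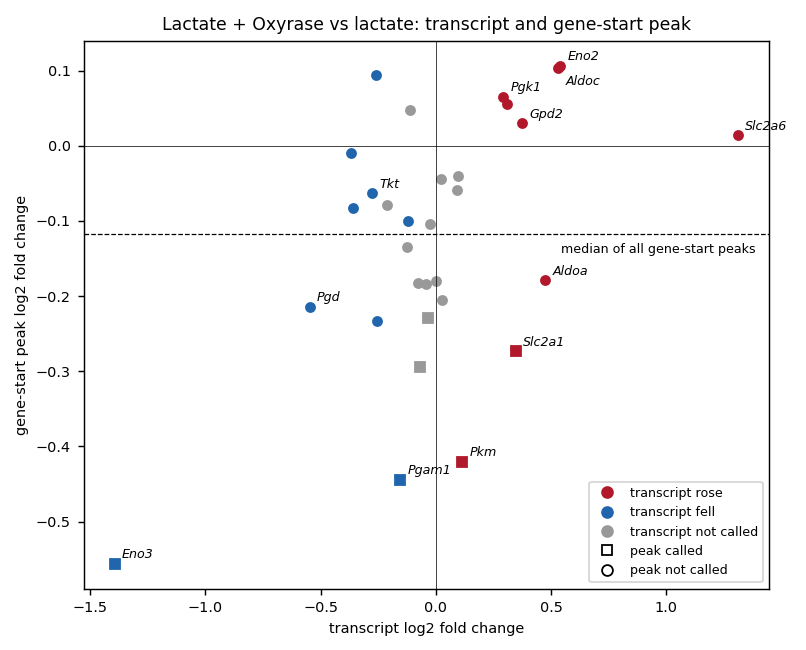
Log2 fold change with Oxyrase against lactate of the transcript (horizontal axis) and of the peak nearest the gene start (vertical axis) for 31 genes, with colour for the transcript call and squares for called peaks; the dashed line is the median of all gene-start peaks. Slc2a6 lies far to the right near 0 on the vertical axis, and Eno3 lies lowest on both axes.

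Of 58 listed genes that are side enzymes, pyruvate-using enzymes or regulators, 48 were tested, and 5 rose and 5 fell with pyruvate against NaCl, 2 and 1 with lactate against NaCl, 18 and 18 with Oxyrase against lactate, 15 and 18 with Oxyrase and lactate against NaCl, and 7 and 6 with pyruvate against lactate. Over all tested genes the called shares were 15.7%, 7.73%, 49.7%, 50.8% and 24% in the same order. The largest changes with Oxyrase over lactate were those of Arrdc4 (2.43 ± 0.149) and Txnip (1.16 ± 0.058), arrestins that respond to sugar phosphates and restrain glucose uptake, and of Egln3 (1.08 ± 0.102), a prolyl hydroxylase of the hypoxia-inducible factors. Gpd1l, a cytosolic glycerol 3-phosphate dehydrogenase, fell by 0.98 (SE 0.053, adjusted p = 1.33e-10). Txnip also rose with pyruvate over NaCl (0.37 ± 0.059, adjusted p = 0.000432), beside the monocarboxylate exporter Slc16a3 (0.39 ± 0.082, adjusted p = 0.00392) and the heme-sensing repressor Bach1 (0.54 ± 0.106, adjusted p = 0.00211), while the urate and hexose transporter Slc2a9 fell by 0.52 (SE 0.166, adjusted p = 0.0421).

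Pyruvate over lactate gave Arrdc4 at 0.67 ± 0.161, Bach1 at 0.48 ± 0.104 and Txnip at 0.38 ± 0.058, and the galactose mutarotase Galm fell by 0.44 (SE 0.072). With lactate against NaCl the hypoxia-inducible factor subunit Hif1a (0.20 ± 0.042, adjusted p = 0.00946) and the galactokinase Galk1 (0.18 ± 0.047, adjusted p = 0.0273) rose, and Vhl, which marks hypoxia-inducible factors for degradation, fell by 0.26 (SE 0.053, adjusted p = 0.00824). Hif1a and Vhl differed the other way when Oxyrase was added. Hif1a stood at 549, 564 and 517 CPM with lactate and 401, 381 and 361 CPM with Oxyrase. Vhl stood at 23.6, 22.1 and 23.2 CPM with lactate and 30.4, 31.5 and 31.4 CPM with Oxyrase. Of 11 hypoxia-responsive genes outside glycolysis, 10 rose with Oxyrase over lactate and 0 fell (median 0.63), where 26.1% of all genes rose and 23.6% fell. With pyruvate over NaCl 5 rose and 0 fell (median 0.27), where 9.4% and 6.28% of all genes did, and with lactate over NaCl 1 rose and 2 fell (median -0.02), where 3.61% and 4.12% did. This list and the next were chosen with earlier results of these data known. The hypoxia list does not cover every gene tied to hypoxia: Ldha, Pdk1 and Egln3 were counted with the other pathway genes. With Oxyrase over lactate Ldha fell by 0.22 (SE 0.039, adjusted p = 0.000157) and Pdk1 by 0.34 (SE 0.055, adjusted p = 6.50e-05), while Egln3 rose by 1.08 ± 0.102. Of 9 targets of the oxidant-responsive factor NRF2, 7 rose and 0 fell with Oxyrase over lactate (median 1.66, against the same shares of all genes), and 6 rose and 0 fell with pyruvate over NaCl (median 0.41). Of the 7 pentose phosphate members, some of which are also known NRF2 targets, 4 fell (Pgls, Pgd, Rpia, Tkt) and 1 rose (Rpe) in the former comparison. In the latter Pgls fell, and the other 6 were not called: G6pdx was at 0.11 ± 0.038 (adjusted p = 0.0548), Rpe at 0.14 ± 0.051, Taldo1 at 0.03 ± 0.042, Rpia at -0.04 ± 0.049, Pgd at -0.05 ± 0.041 and Tkt at -0.06 ± 0.032.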

How the data were processed

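Poly(A) RNA-seq and ATAC-seq gave 12 libraries each, 3 for each of 4 groups read from the sample labels. The RNA values are estimated counts per gene deposited by the authors; RSEM 1.2.12 with Bowtie2 2.2.0 is named in the submitters' processing notes. The table is called adjusted, and how is not given in the sources used here. Of its non-zero values 99.24% were whole, and 460 genes held a fractional value above 1; 448 of these were at 0 throughout 1 replicate number, so the spread within groups may be too small and the RNA p-values with it. For ATAC the authors deposited read counts over 75802 mm10 peaks, with duplicates and mitochondrial reads removed per the file headers.

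From these, counts were rounded, filtered with filterByExpr, scaled by TMM and fitted in 1 edgeR 4.0.16 quasi-likelihood model per assay over all 12 libraries, without a replicate term, with a threshold of 0.05 after Benjamini-Hochberg adjustment. Fits were tested on simulated data. Gene symbols, spans and promoters came from RefSeq (GRCm38.p6); peak starts were read as counted from 0. The 2 Ensembl identifiers of Aldoa were not summed, since the second held 0 to 6 counts. Isoform ratios used CPM plus 0.5. Alternatives were the scaling, the filter, the tool (DESeq2 1.42.0), the samples in the fit, a replicate block, the gene-start window (2.5 kb) and each library left out. The members and gene lists were chosen with earlier results of these data known. All members were named or counted. Values by library are given for members called with a change of at least 0.5 (log2) and for isoform families; Tkt, Pkm and Gpd2 were added after their values were seen. Of the other pathway genes, up to 4 called genes with the largest change are named in each comparison (for Oxyrase and lactate against NaCl these were Arrdc4, Txnip, Rbks and Egln3). Reads of genes with near-identical copies may be split; the highest count of such a copy was 103 (Eno1b). Whether counting used strand is not given in the sources used here. Intervals and floors cover counting error only where they are stated for counts. R 4.3.3 and Python 3.11.15 were used.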

Additional observations from a re-analysis of the deposited data

How the results depend on the processing

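Of the member values in 5 comparisons, 808 of 864 alternatives for called genes kept the call, 56 lost it, 44 alternatives for uncalled genes gained one, and 0 reversed. Members called for lactate against NaCl numbered 7, 12 with no filter on low counts and 3 to 8 with libraries left out. Genes called for lactate against NaCl numbered 1140, 1724 with no filter and 451 (without NaCl 2) to 1124 with libraries left out, and for pyruvate against NaCl 2313, and 1281 (without pyruvate 2) to 1920. ATAC peaks called for lactate against NaCl numbered 4857, and 684 (without NaCl 2) to 11317 (without NaCl 3) with libraries left out, and for pyruvate against lactate 8804, and 3597 (without lactate 3) to 8150. Member peaks for lactate against NaCl numbered 6, and 1 to 11 with libraries left out. For pyruvate against lactate they numbered 7, 12 with gene-start peaks scaled alone and 2 to 9 with libraries left out.

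The labels do not say that a replicate number marks a shared animal or day, and whether the numbers pair the samples could not be settled. Same-numbered RNA libraries correlated at -0.21 to -0.079 in their deviations from group means, but a table adjusted for replicate number would give negative values, so pairing cannot be read from them. Same-numbered ATAC libraries correlated at -0.15 to 0.17 (median 0.061, other numbers -0.030), 6 of 18 pairs were over 0.1, and 8 of 12 libraries correlated best with their own number, a hint from the data and not from the design. With the replicate block, genes called for lactate against NaCl numbered 671, ATAC peaks for pyruvate against NaCl 1 and member peaks for lactate against NaCl 10. Under the block 6 member calls missed the threshold, at adjusted p = 0.051 to 0.09: Eno2 and Pfkm (lactate against NaCl), Hk2 (Oxyrase against lactate), Pgls (pyruvate against NaCl), and Hk1 and Tkt (pyruvate against lactate).

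With a pseudocount of 5 CPM, about as large as the levels of Aldoc and Pfkfb4 themselves, the largest difference of group means was 0.24 for Aldoc/Aldoa and 0.33 for Pfkfb4/Pfkfb3, which then passed the threshold (exact permutation test, adjusted p = 0.0451 and 0.003). The share of counts without Gapdh was 1.22% in NaCl, 1.34% with pyruvate, 1.23% with lactate and 1.30% with Oxyrase, and on TMM-scaled totals 1.84% with pyruvate and 1.76% with Oxyrase. Ratios on per-length values were not run, since transcript lengths were not used here. Depth limits Hk3, near the level of 3 counts.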
